A study of Mus musculus with 8 samples.

Results

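The genes described here are 36 mouse genes of blood coagulation and fibrinolysis, chosen by name from what their products do and found by symbol among 55450 gene identifiers, and all 36 were present. They were measured as RNA in 8 livers. The 4 control livers came from mice with both Cebpa alleles floxed (Cebpa fl/fl) and no Cre, and the 4 knockout livers came from Cre-positive mice whose hepatocytes lack Cebpa. Every mouse was 10 weeks old at the start, was given 5 days on a control liquid diet, and was then fed 5% (by volume) ethanol in liquid diet over 4 weeks. Controls and knockouts thus share the ethanol diet, livers of mice without ethanol are not analysed here, and no value below is a response to ethanol. The promoter that drives Cre is not given in the sources used here, and the RNA came from whole liver, in which hepatocytes lie among endothelial, Kupffer, stellate and bile duct cells.

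Coagulation is a cascade of plasma proteases. Tissue factor with factor VII starts it outside the vessel, the contact factors and factors XI, IX and VIII drive or amplify it from inside, and both arms meet at factor X and factor V, which turn prothrombin into thrombin. Thrombin cuts fibrinogen into fibrin, antithrombin and the protein C system restrain thrombin, and plasmin, made from plasminogen, dissolves the clot. Hepatocytes secrete most of these proteins, whereas factor VIII, von Willebrand factor, thrombomodulin and the plasminogen activators come largely from endothelial or other cells. C/EBP alpha, the product of Cebpa, is one of the transcription factors that maintain the differentiated hepatocyte.

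Of the 36 genes, 3 passed the edgeR test and all 3 were lower in the knockout livers: F11 (2.61-fold), Cpb2 (2.08-fold) and F5 (1.46-fold). They are 9.09% of the 33 members that had enough counts to be tested, beside 1.21% of all tested genes called lower. F11 encodes factor XI, a protease that amplifies thrombin formation. F5 encodes factor V, the cofactor with which factor X activates prothrombin. Cpb2 encodes carboxypeptidase B2, also called TAFI, which trims fibrin and slows its breakdown. None was called higher by edgeR, although DESeq2 called Plau higher, and the 3 fibrinogen genes, antithrombin, plasminogen and prothrombin did not pass either test.

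The 250 bases upstream of the RefSeq transcription start (GRCm38.p6, the assembly of mm10) are printed for these 3 genes because they are the members whose RNA differed. The RefSeq start of F5 lies just upstream of the GENCODE one given below. Each sequence is written 5′ to 3′ along its gene, with any match to TTGCNNAA, a form of the C/EBP recognition letters, in capitals.
F5, plus strand, chr1:164151585-164151834: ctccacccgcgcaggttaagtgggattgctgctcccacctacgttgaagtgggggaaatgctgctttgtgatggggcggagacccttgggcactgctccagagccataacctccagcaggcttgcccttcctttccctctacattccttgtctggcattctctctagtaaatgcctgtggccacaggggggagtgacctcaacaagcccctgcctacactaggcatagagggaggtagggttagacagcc
F11, minus strand, chr8:45262032-45262281: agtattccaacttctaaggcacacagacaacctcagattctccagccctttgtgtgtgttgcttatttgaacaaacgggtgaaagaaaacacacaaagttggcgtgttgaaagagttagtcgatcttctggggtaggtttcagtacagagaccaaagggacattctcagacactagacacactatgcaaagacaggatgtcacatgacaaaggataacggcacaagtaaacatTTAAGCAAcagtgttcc
Cpb2, plus strand, chr14:75242037-75242286: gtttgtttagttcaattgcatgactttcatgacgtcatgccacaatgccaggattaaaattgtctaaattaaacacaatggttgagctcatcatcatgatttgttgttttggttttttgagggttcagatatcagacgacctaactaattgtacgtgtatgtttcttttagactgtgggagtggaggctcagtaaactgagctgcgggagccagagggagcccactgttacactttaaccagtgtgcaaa
Read on both strands, F11 had 1 match, TTAAGCAA, at 17 to 10 bases before the start, which is TTGCNNAA on the other strand. No match lay in the printed bases of F5 or Cpb2, which says only that these letters are not in these windows. TTGCNNAA was the only motif searched. RefSeq windows of 250 bases before to 50 bases after a start were found for 29 of the 36 genes, in 31 windows. Proc, Kng1, Plg, Plat, Plau, Vwf and Thbd had none. The letters were present in 12 of the 31 windows (38.7%), against 10.8% of 32851 promoter windows of the same length. In the 250 bases upstream alone they were present in 10 of the 31 (32.3%), against 9.56%. The 32851 windows were not matched to the members in base composition or in liver level. The genes with a match were Serpinc1 and Cpb2 (both after the start only), Procr, Fga, Fgb, Ggcx, Plaur, F11, Klkb1, Hrg, Kng2 and F9. Of these, F11 and Cpb2 were called and the other 10 were not. A match is a description of the letters, not of binding, which was not measured here.

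The libraries held 21048350 to 28148744 expected counts, RSEM estimates that split shared reads between genes. Levels below are CPM, counts scaled to library size after TMM correction, and 1 count was worth 0.0341 to 0.0485 CPM. Levels of different genes are compared in TPM, which is scaled to gene length, and ratios of 2 genes in CPM are used only to compare livers. Cebpa was at 263.6 to 320.3 CPM in control livers against 5.44 to 9.26 CPM in knockout livers (log2 fold change -5.38, SE 0.18, edgeR adjusted p = 4.78e-07), so all 4 knockouts lay far below all 4 controls. Over 13303 genes tested, 274 (2.06%) had an adjusted p below 0.05, 113 higher (0.849%) and 161 lower (1.21%) in the knockouts. With library size alone in place of TMM factors the split was 161 higher and 115 lower. The titles number the livers of each genotype 1 to 4, while a replicate tag read Rep 1 in the samples looked at. How the replicates were taken is not described. The p-values set the difference between the groups against the spread between these livers. Summed hepatocyte markers (9 of 10 found, Alb and Apoa1 among them) were at 90560 to 125800 CPM in control livers against 110000 to 123100 CPM in knockout livers, with none of the 9 called by edgeR and 1 called lower by DESeq2. Of the 9, 7 had negative log2 fold changes, with a median of -0.19. Control 2 stood apart from the other controls in the sum of 15 acute phase genes outside coagulation. These summed to 33200 CPM there and to 6822 to 9380 CPM in the other controls. Values without control 2 are given for some of the genes below.

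Most of the genes are abundant liver transcripts. In controls 8 of the 36 had a mean of at least 1000 TPM, 21 of at least 100 TPM, and 10 were below 10 TPM. Antithrombin (Serpinc1) led at 2348 ± 262 TPM (SD, n = 4), followed by Fga at 2159 ± 530 TPM and Fgg at 2001 ± 430 TPM, and these neighbours in the order differ by less than their spread. The low group comprised F3, F8, Vwf, F13a1, Procr, Thbd, Tfpi, Plat, Plau and Plaur, several of which are known from cells other than hepatocytes. F11 was at 25.1 ± 2.60 TPM in controls, while the proteases of the same arm F12 and Klkb1 stood at 281.9 ± 36.5 TPM and 77.4 ± 8.92 TPM.

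**Figure D1:**
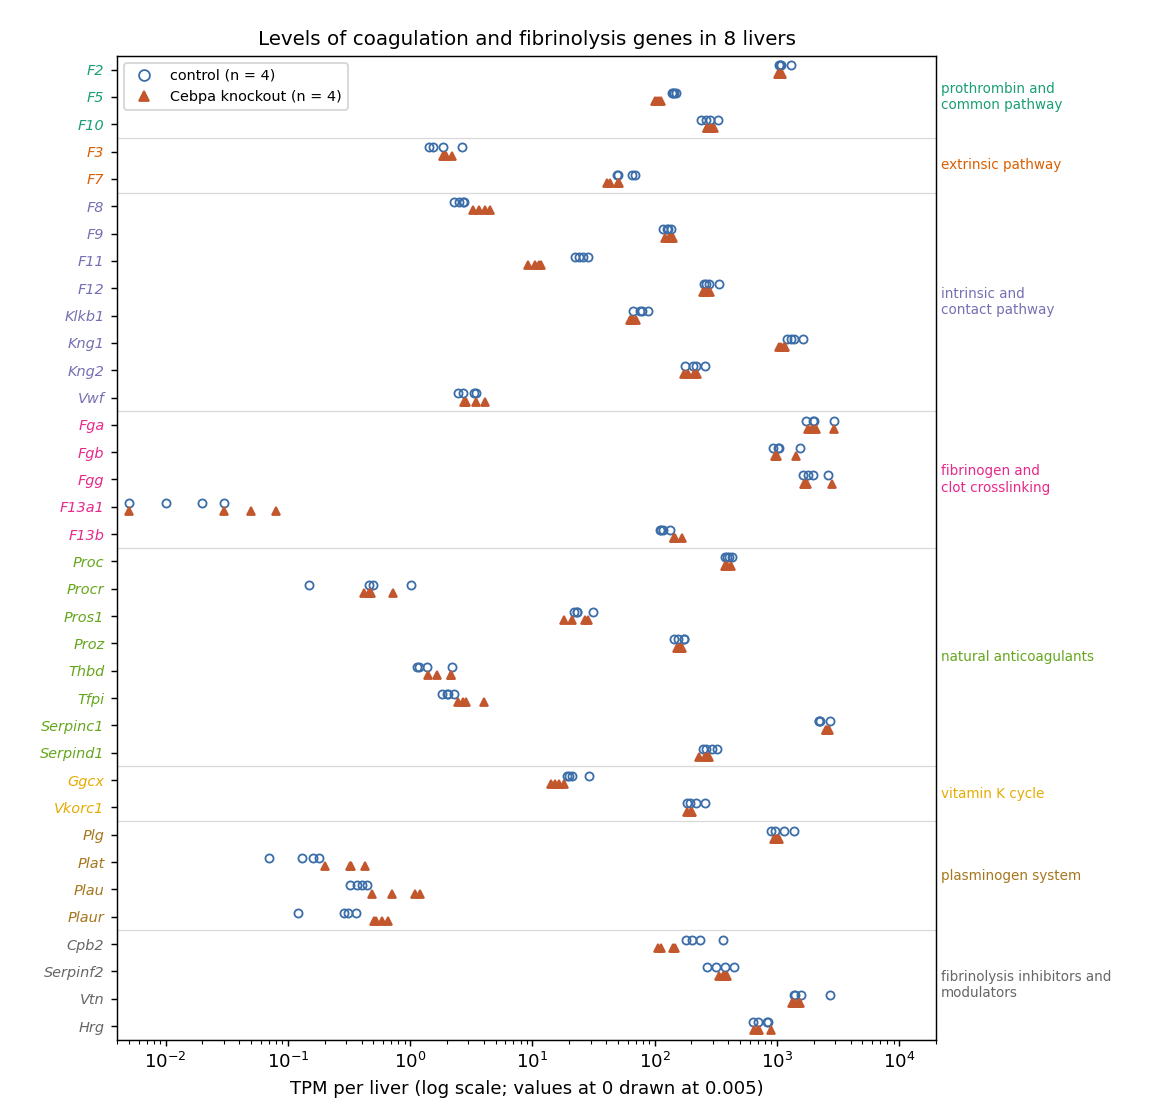
TPM of each of the 36 genes in every liver on a log axis, grouped by role, with open circles for the 4 controls and triangles for the 4 knockouts. Control means span from 0.015 TPM (F13a1) to 2348 TPM (Serpinc1), and the knockout points of F11, F5 and Cpb2 lie to the left of all their control points.

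Of the 36 genes, 33 passed the filter on low counts; F13a1, Plat and Plaur did not. The number of the 33 called higher was 0 by edgeR, beside 0.849% of all genes tested, and 2.06% of all genes were called in either direction. At an unadjusted p below 0.05 there were 10 of 33 (30.3%), 7 lower and 3 higher, beside 18.5% of all genes. DESeq2 called 7 of the 33, namely F11, F5, Cpb2, Klkb1, Kng1 and Ggcx lower and Plau higher, where it called 6.45% of all genes. The count of 3 fell to 1 (F11) when knockout 1 or knockout 2 was left out, and it was 3 without control 2 and knockout 4.

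Over the 33 tested genes, the groups did not overlap for 6 genes lower in the knockouts (F2, F5, F11, Kng1, Ggcx and Cpb2), beside 5.92% of all tested genes. They did not overlap for 2 genes higher in the knockouts (Tfpi and Plau), beside 5.54% of all tested genes. On the TPM scale the overlap differed for a few genes. There F8 (2.27 to 2.77 TPM in control livers, 3.27 to 4.51 TPM in knockout livers) and F13b (110.6 to 133.4 TPM, 142.6 to 168.5 TPM) did not overlap either, each with a limma-trend adjusted p of 0.0907, while the groups of F2 did overlap. The share of all tested genes without overlap was not counted in TPM. The median log2 fold change of all genes was 0.091 on that scale and 0.0036 with TMM factors.

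The log2 fold change was negative for 25 of the 33 genes and positive for 8, with a median of -0.14 against 0.0036 for all genes tested, of which 49.3% were negative. With library size alone 22 were negative, with medians of -0.072 for the members and 0.073 for all genes. On the TPM scale 19 were negative, with medians of -0.020 and 0.091. The members' median was below that of all genes under each scaling. A change of library scaling shifts all genes nearly alike, so it could hardly alter this gap and is no separate support for it. The 9 hepatocyte markers leaned the same way, and their part in the members' values was not tested. Most fold changes were small, and 23 of 33 (69.7%) lay within 0.3 of 0 on the log2 scale, beside 70.4% of all genes. In bulk liver, fewer cells of a type and less RNA per cell cannot be told apart.

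**Figure D2:**
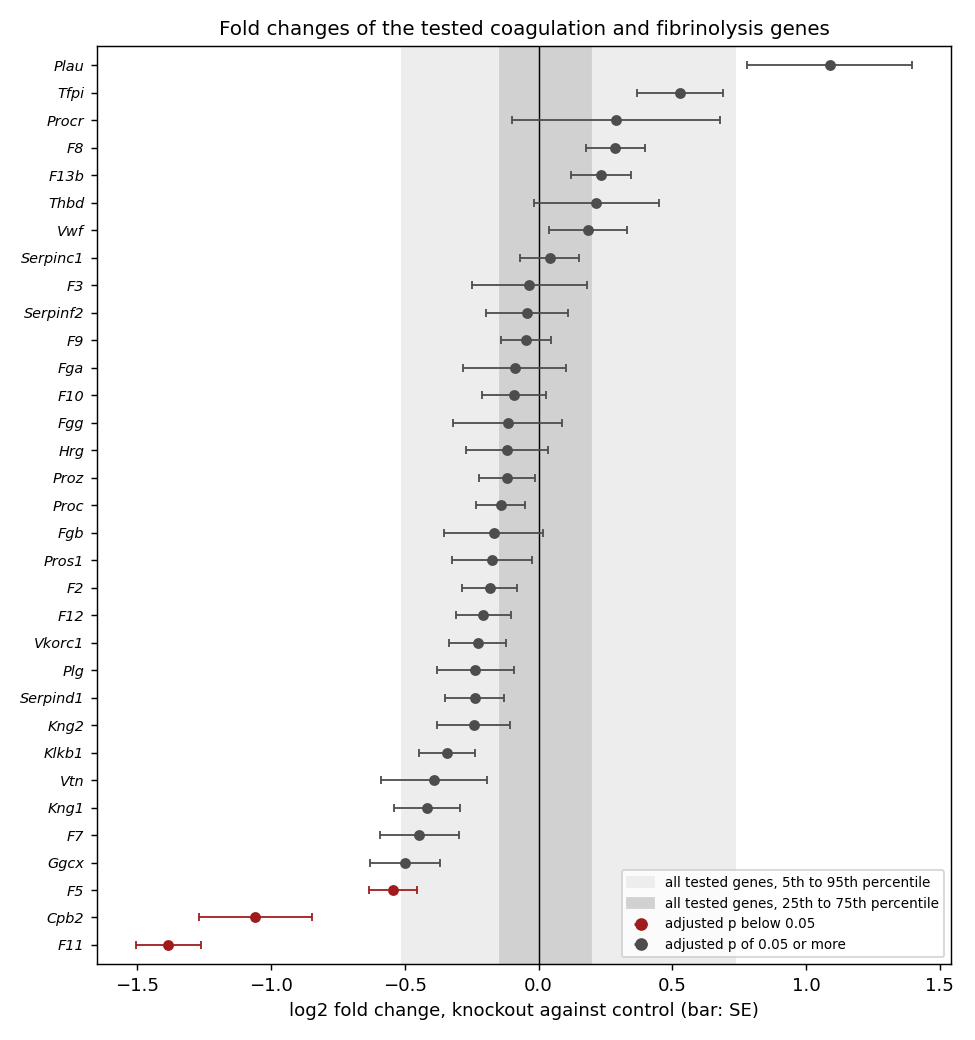
log2 fold change of knockout against control for the 33 tested genes, with SE bars, over grey bands for the 25th to 75th and the 5th to 95th percentile of all tested genes. F11, Cpb2 and F5, in red, are the genes with an adjusted p below 0.05, and Plau lies farthest to the right at 1.09 without passing the test.

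In the common pathway F5 fell, and F2 and F10 did not pass the test. F5 (ENSMUSG00000026579.8) lies on the plus strand of chromosome 1 of mm10 from 164151838 to 164220277. It was at 850.6, 843.2, 787.7 and 856.8 CPM in control livers 1 to 4 against 551.9, 536.0, 606.0 and 596.3 CPM in knockout livers 1 to 4. Every knockout liver was below every control, and the livers within a group were close together. The change was -0.54 on the log2 scale (SE 0.09, edgeR adjusted p = 0.0167), and the mean fell from 143.3 ± 4.24 to 106.3 ± 4.93 TPM (SD, n = 4 each). The adjusted p was 0.0639 without knockout 1 and 0.0655 without knockout 2, with log2 fold changes of -0.54 and -0.51. Reads of Gm16548, annotated on the opposite strand within F5, came to 0.538% of the F5 counts.

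F2, which encodes prothrombin, was one of the most abundant members, at 1114 ± 123 TPM in control livers against 1060 ± 37.8 TPM in knockout livers. Its level was 1604, 1830, 1494 and 1518 CPM in control livers against 1424, 1365, 1424 and 1465 CPM in knockout livers. The groups did not overlap, but the gap from the lowest control to the highest knockout was narrow, and the log2 fold change of -0.18 (SE 0.10) did not pass the test (adjusted p = 0.37). F10, which encodes factor X, the protease that cuts prothrombin, was at 362.5 ± 49.9 CPM in control livers against 339.9 ± 34.1 CPM in knockout livers, with a log2 fold change of -0.09 (adjusted p = 0.713) that was 0.022 on the TPM scale.

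The extrinsic arm gave no call. F7, which encodes the protease that tissue factor activates, was at 65.7 to 91.1 CPM in control livers against 47.8 to 66.4 CPM in knockout livers, so the groups overlapped (log2 fold change -0.45, SE 0.15, adjusted p = 0.148). F7 lies 1498 bases from F10, and F10 lies 4237 bases from Proz, with no protein-coding gene between them. The log2 fold changes of these 3 neighbours were -0.45, -0.09 and -0.12, and differences between them were not tested. F3, tissue factor itself, was scarce at 1.95 to 3.49 CPM in control livers against 2.25 to 2.47 CPM in knockout livers (log2 fold change -0.03, adjusted p = 0.954), and its sign turned positive with library size alone and in TPM.

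F11 was the member with the largest fall and the smallest p. The gene (ENSMUSG00000031645.4) lies on the minus strand of chromosome 8 from 45241174 to 45262031. Its level was 46.7, 38.3, 33.95 and 41.4 CPM in control livers 1 to 4 against 17.5, 15.7, 15.4 and 12.9 CPM in knockout livers 1 to 4. The lowest control (33.95 CPM) was far above the highest knockout (17.5 CPM). The change was -1.38 on the log2 scale (SE 0.12, edgeR adjusted p = 0.000488), and F11 stayed called in each of the 8 fits that left out a liver, with log2 fold changes from -1.46 to -1.31 and an adjusted p of at most 0.0039. F11 was also called under every other normalization, filter and test tried.

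Klkb1, which encodes plasma prekallikrein, a contact protease that shares its ancestry and domain plan with factor XI, is the nearest protein-coding neighbour of F11, 4657 bases away on the same strand. Klkb1 was at 331.0, 349.9, 263.6 and 315.8 CPM in control livers against 242.9, 238.9, 275.1 and 237.6 CPM in knockout livers. Knockout 3 exceeded control 3, so the groups overlapped, and the log2 fold change of -0.34 (SE 0.11) did not pass edgeR (adjusted p = 0.131) but did pass DESeq2 (adjusted p = 0.0384). As a percent of Klkb1 in CPM, F11 was 14.1, 10.96, 12.9 and 13.1 in controls 1 to 4 and 7.21, 6.56, 5.61 and 5.41 in knockouts 1 to 4. This ratio of 2 adjacent genes, chosen after their values were seen, averaged 12.8 ± 1.31% in controls and 6.20 ± 0.84% in knockouts (SD, n = 4 each), a log2 difference of -1.05, given as a description with no test. In TPM, scaled to length, F11 was 32.7 ± 3.68% of Klkb1 in controls and 16.2 ± 2.002% in knockouts, a log2 difference of -1.01. The ratio does not depend on how the libraries are scaled against each other. Gm45753, annotated within Klkb1 on the same strand, had 1.33% as many counts as Klkb1.

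**Figure D3:**
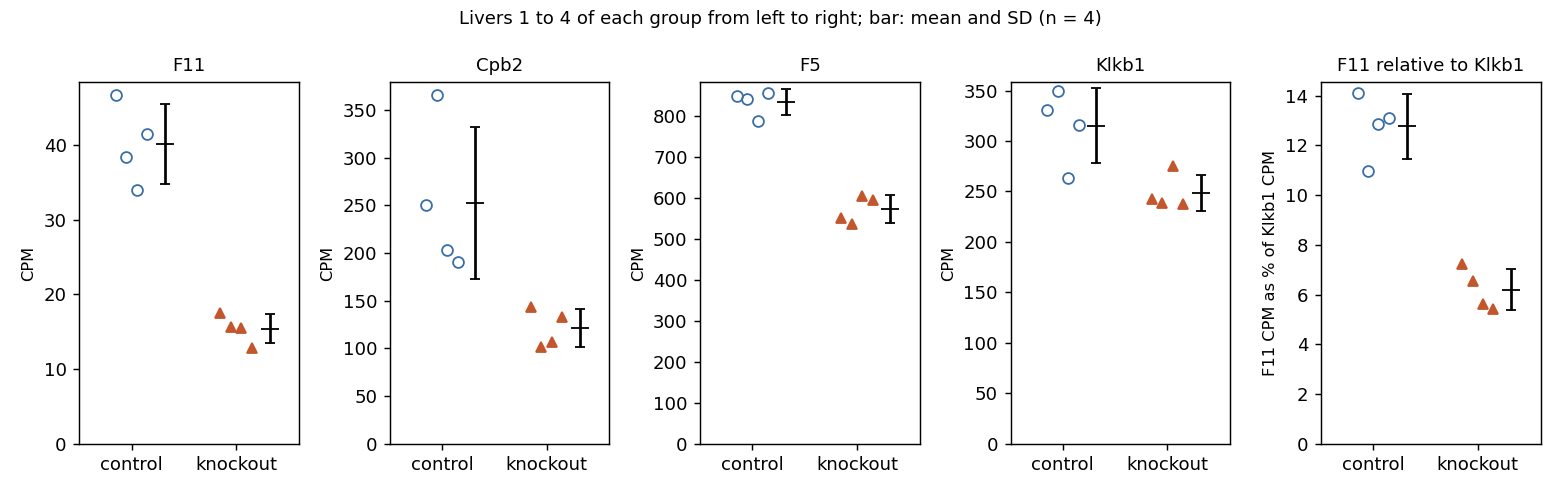
CPM of F11, Cpb2, F5 and Klkb1, and F11 as a percent of Klkb1, in livers 1 to 4 of each group, with the mean and SD (n = 4) beside the points and axes from 0. Knockout points lie below all control points in every panel except Klkb1, where knockout 3 (275.1 CPM) is above control 3 (263.6 CPM).

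Of the 8 genes of the intrinsic and contact arm, F11 alone was called by edgeR. Kng1 encodes high molecular weight kininogen, the carrier of prekallikrein and factor XI, and was at 1994, 2351, 1722 and 2031 CPM in control livers against 1502, 1344, 1635 and 1580 CPM in knockout livers. All knockouts were below all controls (log2 fold change -0.42, SE 0.12, edgeR adjusted p = 0.116, DESeq2 adjusted p = 0.0111). Kng2, its close paralog on chromosome 16, had a log2 fold change of -0.24 (adjusted p = 0.376). Estimated counts divide reads shared by near-identical copies, so the split between Kng1 and Kng2 is uncertain, and their sum was 2267 ± 295 CPM in control livers against 1721 ± 153 CPM in knockout livers (SD, n = 4 each).

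F12, the protease that starts contact activation, had a log2 fold change of -0.21 (adjusted p = 0.315) and F9, the protease that pairs with factor VIII, one of -0.05 (adjusted p = 0.813). F9 turned slightly positive with library size alone (0.019) and in TPM (0.061). F8 encodes factor VIII, the cofactor of factor IX, and Vwf encodes the protein that carries it. F8 was at 13.5 to 16.6 CPM in control livers against 15.2 to 20.1 CPM in knockout livers (log2 fold change 0.29, SE 0.11, adjusted p = 0.203). Counts of Fundc2, whose span overlaps that of F8 on the opposite strand, came to 27.2% of the F8 counts. If the counting ignored strand, reads from any shared sequence cannot be told apart. How much sequence the 2 share was not examined. Vwf was at 6.81 to 9.82 CPM in control livers against 7.91 to 11.01 CPM in knockout livers (log2 fold change 0.19, adjusted p = 0.53).

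The fibrinogen genes did not pass the test, and the livers that stood out belonged to both groups. Fga, Fgb and Fgg encode the 3 chains of fibrinogen and lie side by side on chromosome 3, with gaps of 11026 bases between Fgg and Fga and 6513 bases between Fga and Fgb. Fga was at 3159, 4382, 2608 and 3163 CPM in control livers against 2651, 2816, 2884 and 4155 CPM in knockout livers. Fgb was at 3145, 4366, 2655 and 2990 CPM in control livers against 2635, 2541, 2733 and 3805 CPM in knockout livers. Fgg was at 2461, 3112, 1943 and 2215 CPM in control livers against 2041, 1826, 1949 and 3165 CPM in knockout livers. Control 2 and knockout 4 were the highest livers of their group for all 3 genes, at 1.41 to 1.49 and 1.44 to 1.63 times the mean of the other livers of the group.

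The log2 fold changes were -0.09 for Fga, -0.17 for Fgb and -0.12 for Fgg, with SEs of 0.19, 0.19 and 0.20 and edgeR adjusted p-values of 0.832, 0.663 and 0.793, and the sign of Fga turned positive in TPM. The 3 chains kept close proportions, with Fga over Fgg in CPM at 1.36 ± 0.066 in controls and 1.41 ± 0.12 in knockouts. Fgb over Fga was 0.989 ± 0.031 in controls and 0.940 ± 0.041 in knockouts. Fibrinogen belongs to the acute phase proteins of the liver. Of the 15 other acute phase genes 14 had negative log2 fold changes (median -1.35). At an unadjusted p below 0.05, 11 were lower, beside 18.5% of all genes in either direction. Of the 15, edgeR called 1 and DESeq2 3, beside 2.06% and 6.45% of all genes, and DESeq2 gave no adjusted p for 5. These values include control 2, and values without it are not given for these genes. The summed level of the 15 was likewise highest in control 2 among the controls, at 33200 CPM against 6822 to 9380 CPM in the others. Among the knockouts it ran from 5120 to 6522 CPM, with knockout 4 the highest, and its part in the fibrinogen values was not tested. Without control 2 and knockout 4 the log2 fold changes were -0.10 for Fga, -0.16 for Fgb and -0.19 for Fgg. Without knockout 4 alone they were -0.26, -0.32 and -0.33, and without control 2 alone they were 0.069, -0.0024 and 0.023. None was called in any of these fits.

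**Figure D4:**
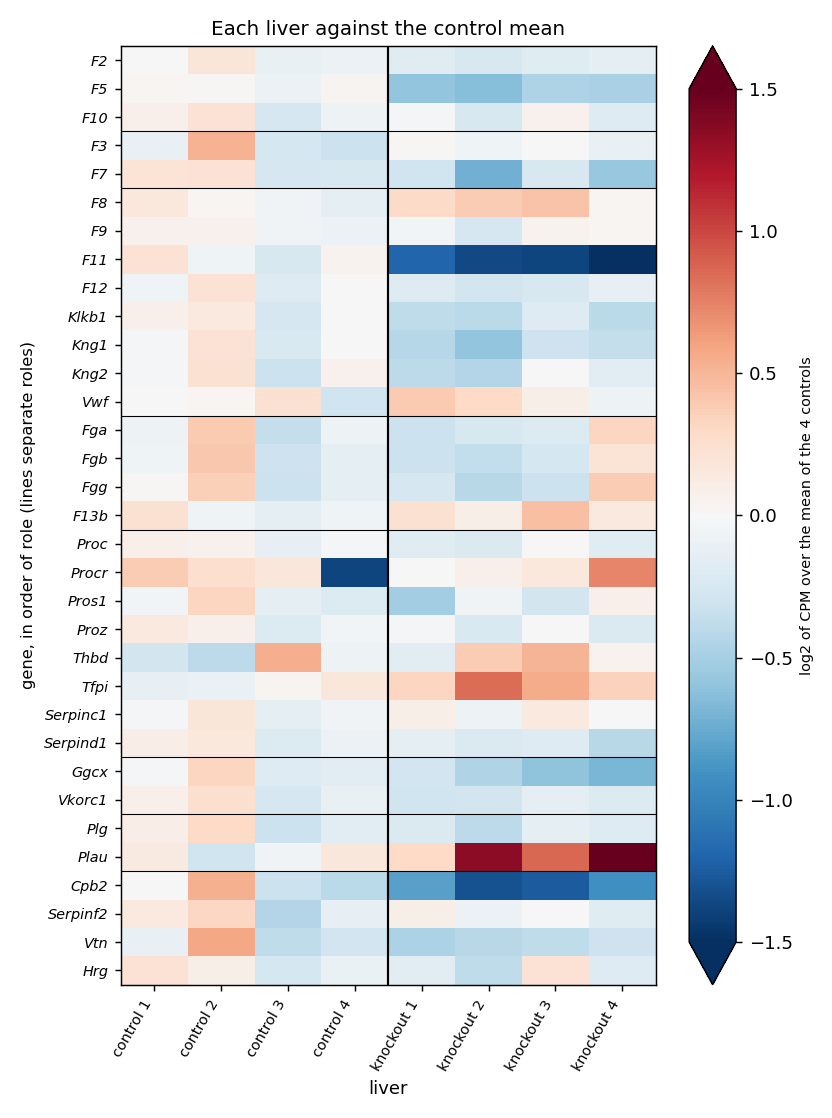
log2 of CPM over the mean of the 4 controls for the 33 tested genes (in order of role) in each liver, blue for lower and red for higher. Control 2 is the highest control in 20 of the 33 genes, Fga, Fgb and Fgg are red in control 2 and knockout 4, and F11 and Cpb2 are blue in all 4 knockouts.

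F13b encodes the carrier subunit of factor XIII, the transglutaminase that crosslinks fibrin, and was at 206.5 ± 24.2 CPM in control livers against 242.8 ± 27.4 CPM in knockout livers (log2 fold change 0.23, SE 0.11, adjusted p = 0.298). F13a1, the catalytic subunit, which is made mainly by macrophages and platelets, had 4 counts in all controls together and 8 in all knockouts together and was not tested. The 10 platelet and megakaryocyte markers summed to 1.49 to 2.57 CPM in control livers against 1.62 to 2.38 CPM in knockout livers, and Treml1 had no count in any liver.

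None of the 8 natural anticoagulants was called. Serpinc1, antithrombin, was at 1734 ± 164 CPM in control livers against 1783 ± 124 CPM in knockout livers (log2 fold change 0.04, SE 0.11, adjusted p = 0.872). Serpind1, heparin cofactor II, had a log2 fold change of -0.24 (adjusted p = 0.282), and Pi4ka, which overlaps it on the opposite strand, had 13.4% as many counts. Proc (protein C), Pros1 (protein S) and Proz (protein Z) encode vitamin K dependent proteins of the liver, and their log2 fold changes were -0.14, -0.17 and -0.12, with adjusted p-values of 0.447, 0.568 and 0.575.

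The anticoagulants known mainly from endothelium were scarce, and their positive log2 fold changes did not pass the test. Tfpi, which blocks tissue factor with factor VII, was at 3.16, 3.20, 3.54 and 3.86 CPM in control livers against 4.31, 6.13, 5.07 and 4.37 CPM in knockout livers. The groups did not overlap, but the log2 fold change of 0.53 (SE 0.16) did not pass the test (adjusted p = 0.128). Thbd (thrombomodulin, the thrombin receptor that starts protein C activation) and Procr (the protein C receptor) had log2 fold changes of 0.22 (adjusted p = 0.655) and 0.29 (adjusted p = 0.723), and their groups overlapped. All 12 endothelial markers had positive log2 fold changes (median 0.26) with none called, and their sum was 215.5 to 273.2 CPM in control livers against 257.7 to 334.8 CPM in knockout livers. Their part in the values of Tfpi, Thbd, Procr, F8 and Vwf was not tested.

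Both genes of the vitamin K cycle had lower means in the knockouts and neither passed edgeR. Ggcx encodes the carboxylase that modifies prothrombin, factors VII, IX and X and proteins C, S and Z. It was at 41.4, 52.2, 36.4 and 37.1 CPM in control livers against 34.2, 30.5, 27.6 and 25.9 CPM in knockout livers, with no overlap (log2 fold change -0.50, SE 0.13, adjusted p = 0.0903). Ggcx was called with no filter on low counts (adjusted p = 0.0377) and by DESeq2 (adjusted p = 0.0231). Control 2 was its highest control. The log2 fold change was -0.38 without control 2 (edgeR adjusted p = 0.125) and -0.32 without control 2 and knockout 4 (edgeR adjusted p = 0.127). Vkorc1, the reductase that restores vitamin K and the target of warfarin, was at 95.5 ± 14.4 CPM in control livers against 81.5 ± 3.84 CPM in knockout livers (log2 fold change -0.23, adjusted p = 0.285).

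In the plasminogen system the zymogen and its activators differed in level by orders of magnitude. Plg, plasminogen, was at 1092 ± 213 TPM in control livers against 1001 ± 43.3 TPM in knockout livers (log2 fold change -0.24, SE 0.14, adjusted p = 0.41). Plau, which encodes urokinase, an activator of plasminogen, was at 0.383 ± 0.051 TPM in control livers against 0.875 ± 0.334 TPM in knockout livers. Its level was 0.722, 0.534, 0.632 and 0.737 CPM in control livers against 0.808, 1.66, 1.19 and 1.91 CPM in knockout livers. All knockouts were above all controls, with knockout 1 only just so. The log2 fold change of 1.09 (SE 0.31, 2.13-fold higher) did not pass edgeR (adjusted p = 0.107) but did pass DESeq2 (adjusted p = 0.0489).

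Plaur, the urokinase receptor, and Plat, the tissue plasminogen activator, were too low to be tested, with 22 and 23 counts over the 4 controls and 49 and 55 over the 4 knockouts. Plat was at 0.135, 0.243, 0.295 and 0.347 CPM in control livers against 0.584, 0.712, 0.366 and 0.546 CPM in knockout livers, so all knockouts lay above all controls. The gap from 0.347 to 0.366 CPM was smaller than the value of 1 count (0.0341 to 0.0485 CPM). With no filter on low counts the log2 fold change was 1.09 for Plat (adjusted p = 0.294) and 1.00 for Plaur (adjusted p = 0.383). Counts this low limit the precision of each value. Markers of bile duct, macrophage and stellate cells were measured beside them, and none of these 3 lists held a gene at 0 in every liver. Of the cholangiocyte markers 4 of 7 tested were called higher by edgeR, beside 0.849% of all genes. Their sums were 40.3 to 79.3 CPM in control livers against 143.8 to 390.0 CPM in knockout livers. The 12 macrophage and 10 stellate cell markers all had positive log2 fold changes, with none called by edgeR. DESeq2 called 1 macrophage marker higher and gave no adjusted p for 2 stellate cell markers. The sums were 200.3 to 413.0 and 141.4 to 266.4 CPM in control livers against 319.6 to 530.7 and 243.7 to 506.3 CPM in knockout livers. The part of these 3 lists in the values of Plau, Plat and Plaur was not tested.

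Of the 4 inhibitors and modulators of fibrinolysis, Cpb2 fell. The gene (ENSMUSG00000021999.9) lies on the plus strand of chromosome 14 from 75242287 to 75283555. It was at 250.9, 366.0, 202.8 and 190.6 CPM in control livers 1 to 4 against 143.2, 101.9, 106.6 and 133.1 CPM in knockout livers 1 to 4. All knockouts were below all controls, and control 2, the liver with the highest acute phase sum, stood at 1.70 times the mean of the other controls. The change was -1.06 on the log2 scale (SE 0.21, edgeR adjusted p = 0.0399), from 245.7 ± 82.4 to 127.0 ± 19.7 TPM (SD, n = 4 each). Without control 2 and knockout 4 the log2 fold change was -0.88 (adjusted p = 0.0279).

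The call of Cpb2 was close to the threshold. It was lost in 6 of the 8 fits that left out a liver, with adjusted p-values of 0.081 without control 1, 0.0512 without control 3, and 0.0705, 0.119, 0.101 and 0.056 without knockouts 1, 2, 3 and 4. The log2 fold change in the 8 fits stayed between -1.18 and -0.83. The adjusted p was 0.0602 with no filter on low counts and 0.0619 by limma-trend on TPM, whereas DESeq2 gave 6.94e-05.

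Serpinf2 encodes alpha-2-antiplasmin, the main inhibitor of plasmin, and was at 477.0 ± 104 CPM in control livers against 462.8 ± 36.7 CPM in knockout livers (log2 fold change -0.04, adjusted p = 0.908), with a positive sign by library size alone and in TPM. Vtn, vitronectin, which stabilises the inhibitor of plasminogen activators, was at 3131 CPM in control 2 and 1605 to 1933 CPM in the other controls, against 1512 to 1694 CPM in knockout livers (log2 fold change -0.39, SE 0.20, adjusted p = 0.323). Without control 2 and knockout 4 the log2 fold change of Vtn was -0.16 (adjusted p = 0.413). Hrg, the histidine-rich glycoprotein that binds plasminogen and fibrinogen, had a log2 fold change of -0.12 (adjusted p = 0.711) and lies beside Kng2 and Kng1 on chromosome 16.

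A further 30 haemostasis genes, among them inhibitors, thrombin receptors and clearance receptors, gave 24 tested genes. None was called by edgeR, beside 2.06% of all genes, and DESeq2 called 3 of the 24, beside 6.45% of all genes. An unadjusted p below 0.05 was found for 12 of the 24, beside 18.5% of all genes. Of the 24, 10 had negative and 14 positive log2 fold changes, with a median of 0.12. The 4 with the smallest p-values were Pzp, Tfpi2, Serping1 and Lman1. Pzp, an alpha-2-macroglobulin type protease inhibitor of plasma, was at 5348, 7495, 4728 and 5706 CPM in control livers against 3568, 3520, 3549 and 3976 CPM in knockout livers, with no overlap (log2 fold change -0.67, SE 0.15, edgeR adjusted p = 0.0515). It was called without control 2 (adjusted p = 0.0418) and by DESeq2 (adjusted p = 0.00028).

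Tfpi2, a Kunitz inhibitor related to Tfpi, was at 45.4 ± 6.34 CPM in control livers against 69.4 ± 12.8 CPM in knockout livers (SD, n = 4 each), and all knockouts lay above all controls (log2 fold change 0.61, SE 0.14, edgeR adjusted p = 0.0579). With library size alone (edgeR adjusted p = 0.038), no filter on low counts (edgeR adjusted p = 0.0271) and limma-trend (adjusted p = 0.0217) Tfpi2 was called. It was called in 0 of the 8 fits that left out a liver. Serping1, the C1 inhibitor, which also blocks factors XI and XII and kallikrein, was at 744.7 ± 229 CPM in control livers against 454.7 ± 26.7 CPM in knockout livers (SD, n = 4 each). Its log2 fold change of -0.71 (SE 0.18, edgeR adjusted p = 0.0836) became -0.48 without control 2 (adjusted p = 0.0418). Lman1, a cargo receptor that carries factors V and VIII out of the endoplasmic reticulum, had a log2 fold change of -0.26 (SE 0.09, adjusted p = 0.174). All its knockouts were below all controls in CPM, but narrowly (highest knockout 243.4 CPM, lowest control 246.1 CPM). In TPM its groups overlapped. DESeq2 called Pzp and Serping1 lower and Tfpi2 higher.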

How the data were processed

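Stranded TruSeq libraries of polyadenylated RNA were made from 8 livers, per the labels' protocols. RSEM 1.2.22, STAR 2.5.1, Trimmomatic 0.36, Picard 1.84, DESeq2 and the build mm10 are named in the submitters' processing notes. The deposited tables hold RSEM expected counts, which need not be whole, and TPM values made by the authors. Which strand setting and which annotation release were used is not given in the sources used here. Expected counts in the series-wide table equalled those in the tables per liver. Coordinates came from GENCODE M21, which matched all 55450 identifiers.

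The members and gene lists were chosen with earlier results of these data known. Named genes were all 36 members, Cebpa and the 4 other haemostasis genes with the smallest p. Rounded expected counts went into edgeR 4.0.16 (R 4.3.3): filterByExpr (minimum count 10, minimum total 15), TMM factors, a robust two-sided quasi-likelihood test and Benjamini-Hochberg adjustment over 13303 of 23236 genes with any count, at 0.05. The SE was derived from the fold change and the F statistic. The steps were tested on simulated data. No 2 livers of the same genotype agreed within sampling noise. Alternatives were DESeq2 1.42.0, library size alone, RLE factors, no filter, limma-trend (limma 3.58.1) on log2(TPM + 1), a replicate block, each liver left out, and control 2 with knockout 4 left out. Figures used matplotlib 3.10.9.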

Additional observations from a re-analysis of the deposited data

Results flagged for a closer look

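In 72 groups of 4 livers (36 genes in each genotype), 5 had 1 liver set apart, with a gap to its nearest neighbour, as a share of the group's range, above Dixon's critical value, and chance sets apart about 1 group in 20. Knockout 4 was high for all 3 fibrinogen genes, which share the same liver and so are not separate observations. It held Fga at 4155 CPM (other knockouts 2651 to 2884), Fgb at 3805 CPM (2541 to 2733) and Fgg at 3165 CPM (1826 to 2041). Knockout 3 was high for Klkb1, at 275.1 CPM (other knockouts 237.6 to 242.9), and for Proc, the protein C gene, at 423.0 CPM (363.2 to 371.2). No control group met this rule, although control 2 was the highest control for 20 of the 33 tested genes.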

How the results depend on the processing

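F11 kept its direction and its call under every alternative run. Genes called over all genes numbered 858 by DESeq2 (409 higher, 449 lower), 176 with a replicate block, 431 without control 2 and knockout 4, and 108 to 372 with 1 liver left out. Members called lower numbered 6 by DESeq2, 1 with the replicate block, and 1 to 3 with 1 liver left out, and members called higher numbered 1 by DESeq2. With the block the adjusted p of F5 was 0.0659 and of Cpb2 0.0981. The labels tie no number to a litter or day, same-numbered livers deviated from their group means with correlations of 0.207, 0.009, -0.024 and -0.067, and 2 of 8 livers correlated best with their own number, so the numbers were not treated as pairs. The F11 to Klkb1 log2 difference, whose alternatives were chosen after seeing the data, ran from -1.12 to -0.98 with 1 liver left out, and was -1.05 without control 2 and knockout 4 and -1.01 in TPM.

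Signs reversed, with no call, for genes near 0. Library size alone moved the median of all genes by 0.070 and TPM by 0.088, so negative values nearer to 0 than that can turn sign by the shift itself. With library size alone the log2 fold change was 0.035 for F3, 0.019 for F9 and 0.026 for Serpinf2. In TPM it was 0.022 for F10, 0.077 for F3, 0.061 for F9, 0.021 for Fga, 0.0030 for Proz and 0.083 for Serpinf2. Of these, F10, Fga and Proz were at -0.093, -0.09 and -0.12 with TMM factors. They lay farther from 0 than the TPM shift, Fga by little (-0.09 with an SE of 0.19, beside a shift of 0.088). The TPM values also came from limma-trend in place of edgeR. Without control 2 and knockout 4 the log2 fold change was 0.017 for F10, 0.21 for F3 and 0.12 for Serpinf2. With 1 liver left out the ranges were -0.13 to 0.19 for F3, -0.091 to 0.014 for F9, -0.26 to 0.069 for Fga, -0.33 to 0.023 for Fgg, -0.0051 to 0.10 for Serpinc1 and -0.17 to 0.073 for Serpinf2. What turned the signs of these genes was not tested. Genes near 1 CPM, such as Plau, rest on few counts per liver, and 4 livers a group limit what can be called.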
